A study of Arabidopsis thaliana with 6 samples.

Results

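The genes described here encode inhibitors of serine proteases in Arabidopsis thaliana. They were chosen by locus with results of these arrays already known, and they comprise 6 genes of the potato inhibitor I type, 3 of the Kunitz type and AT1G72060. A member counted as measured where the platform annotation listed a probe set with that gene alone, and this held for 5 of the 10 genes, out of 13333 genes with such a probe set in the whole series. The measured members were AT2G38870, AT2G38900 and AT3G46860 of the potato inhibitor I type, AT1G17860 of the Kunitz type, and AT1G72060. The potato inhibitor I genes AT3G50020, AT5G43570 and UPI (AT5G43580) and the Kunitz genes KTI1 (AT1G73260) and AT1G73325 were not analysed here. Each measured member was represented by 1 probe set.

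The study concerned defence responses and AtR8, a long non-coding RNA. Whole seedlings of the atr8 mutant and of the wild type, both in the Wassilevskija (WS) background, were hybridised to Affymetrix ATH1 arrays, with 3 arrays per genotype that the series calls biological replicates. Every seedling was 10 days old and had spent 6 h in air-purged water as a low-oxygen stress and then 22 h in recovery on agar medium, so the wild type was stressed as well and no unstressed seedlings enter the comparison. The labels name neither the atr8 allele nor the number of lines behind the arrays, and the level of AtR8 was not analysed here.

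Protease inhibitors of plants are small proteins that occupy the active site of a protease and hold it there. The potato inhibitor I family, first known from potato tubers, acts on chymotrypsin-like and subtilisin-like enzymes through an exposed loop, and its genes in tomato and potato leaves are classic targets of wound and jasmonate signalling. Kunitz inhibitors, named after the trypsin inhibitor of soybean, fold as a beta-trefoil and block trypsin-like and, in some cases, cysteine proteases. In Arabidopsis, UPI has been tied to resistance against necrotrophic fungi and chewing insects, and KTI1 to the restraint of cell death during pathogen attack.

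Of the 5 measured inhibitor genes, AT2G38870 and AT1G72060 stood far higher in the atr8 mutant, AT1G17860 stood moderately higher, and AT2G38900 and AT3G46860 were dim with overlapping genotypes. Values are the deposited intensities, on a linear scale and quantile normalized across the arrays. Differences are the mutant minus the wild type of log2(intensity + 16), with the standard error of limma's fit over all probe sets, and folds are 2 to the power of these differences. Because the members were chosen with this comparison known, their differences are a description and carry no test.

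AT2G38870, a potato inhibitor I gene on chromosome 2, had intensities of 10606, 12472 and 12559 in mutant replicates 1, 2 and 3, against 2160, 2133 and 1973 in wild-type replicates 1, 2 and 3. All mutant arrays lay far above all wild-type arrays, the lowest mutant value being 4.91 times the highest wild-type value. The means were 11879 ± 1103 in the mutant and 2089 ± 101 in the wild type (SD, n = 3 each), a difference of 2.50 ± 0.18 on the log2 scale or 5.64-fold. Arrays of 1 genotype scattered little, with a residual SD of 0.11 on the log2 scale, where the median over all probe sets was 0.42. This was not particular to AT2G38870. Among other bright genes named below, LHCB4.1 had 0.14 and RCA 0.18, while AT4G16190 had 0.42.

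AT1G72060, whose product is annotated as a serine-type endopeptidase inhibitor, showed the larger difference on a lower intensity. Its intensities were 647, 891 and 977 in mutant replicates 1, 2 and 3, against 93.6, 65.8 and 122 in wild-type replicates 1, 2 and 3. The genotypes did not overlap, and the lowest mutant value was 5.29 times the highest wild-type value. The mean was 838 ± 172 in the mutant and 93.9 ± 28.2 in the wild type (SD, n = 3 each), and the difference was 2.97 ± 0.29 on the log2 scale, or 7.84-fold with 16 added. With 64 added in place of 16 the difference was 2.51.

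AT1G17860, the measured Kunitz gene, had intensities of 4975, 4950 and 3137 in mutant replicates 1, 2 and 3, against 2304, 2927 and 2410 in wild-type replicates 1, 2 and 3. Mutant replicates 1 and 2 lay close together, while mutant replicate 3 was only slightly above wild-type replicate 2. The means were 4354 ± 1054 in the mutant and 2547 ± 333 in the wild type (SD, n = 3 each), a difference of 0.75 ± 0.26 on the log2 scale or 1.68-fold.

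AT2G38900, a second potato inhibitor I gene, had intensities of 4.16, 8.54 and 41.8 in mutant replicates 1, 2 and 3, against 108, 20.6 and 107 in wild-type replicates 1, 2 and 3. Mutant replicate 3 lay above wild-type replicate 2, so the genotypes overlapped. The difference was −1.43 ± 0.63 on the log2 scale, −2.30 with 1 added and −0.75 with 64 added, so its size was set largely by the value added. AT3G46860, the third measured gene of this type, read 51.3, 5.78 and 11.8 in mutant replicates 1, 2 and 3, against 79.4, 5.57 and 4.32 in wild-type replicates 1, 2 and 3. In each genotype replicate 1 was the highest and the other arrays were close to the bottom of the scale, and the difference was −0.01 ± 0.74. Both genes were among the dimmest 30 percent of probe sets, and no detection call stood beside the deposited values.

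**Figure D1:**
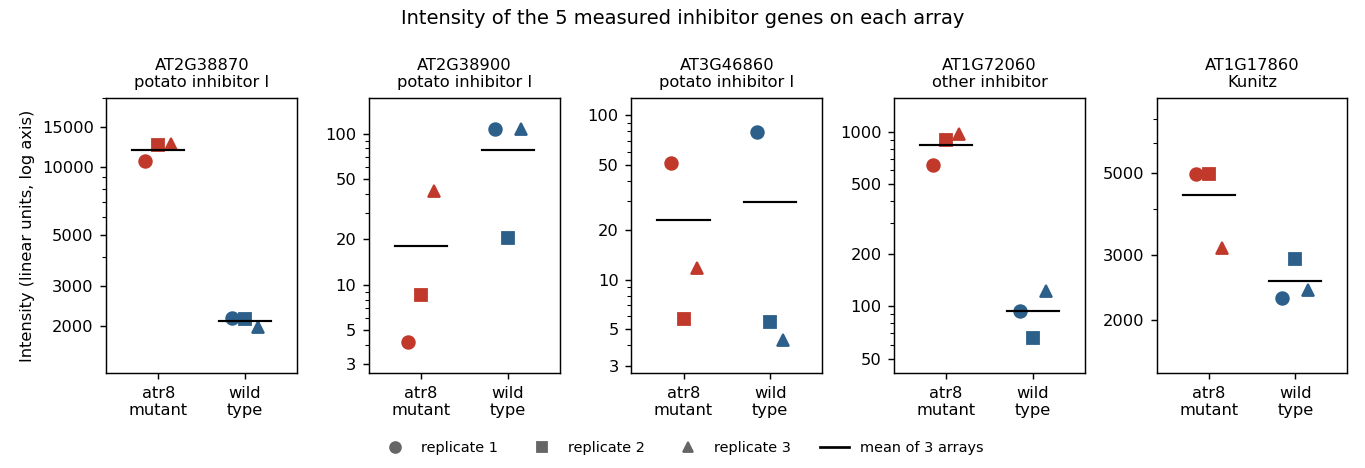
Intensity of each measured inhibitor gene (linear units on a log axis, with its own scale in each panel) on the 3 atr8 mutant and 3 wild-type arrays. Points are arrays, their shapes the replicate number, and bars the mean of 3 arrays. Mutant and wild-type arrays are separate for AT2G38870, AT1G72060 and AT1G17860 and overlap for AT2G38900 and AT3G46860.

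Across the 5 genes the median difference was 0.75, against −0.01 over all 22746 probe sets tested. All mutant arrays lay above all wild-type arrays in 3 of the 5, and 11.2% of all probe sets had such a separation. At an adjusted p under 0.05 (limma, Benjamini-Hochberg over all probe sets) 2 of the 5, AT2G38870 and AT1G72060, were called higher and 0 lower. Over all probe sets 0.919% were called, 0.712% higher and 0.207% lower. These counts repeat the comparison with which the members were chosen. Both calls were lost with a replicate block. They were also lost when any one of mutant replicates 2 and 3 or wild-type replicates 1, 2 and 3 was left out. Under each of these settings limma called 0 of the 22746 probe sets, so no gene could keep a call. The differences there stayed at 2.45 to 2.52 for AT2G38870 and at 2.77 to 3.15 for AT1G72060.

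Mutant replicates 2 and 3 stood apart in control probe sets. The ratio of 3′ to 5′ signal for actin was 28.9 on mutant replicate 2 and 19.6 on mutant replicate 3, against 2.13 on mutant replicate 1 and 2.17 to 2.66 on the wild-type arrays. Correlations of log2 intensity across probe sets were 0.902 to 0.918 within the mutant, 0.872 to 0.909 between genotypes and 0.905 to 0.924 within the wild type. For GAPDH the ratio was 0.996, 1.75 and 1.70 on mutant replicates 1, 2 and 3, against 0.794 to 0.844 on the wild-type arrays, so mutant replicate 1 lay below the wild-type range for actin and above it for GAPDH. The part of these ratios in the inhibitor differences was not tested. On mutant replicate 1 AT2G38870 exceeded the wild-type mean by 2.34 (log2), against 2.57 on mutant replicate 2 and 2.58 on mutant replicate 3. AT1G72060 exceeded that mean by 2.63 on mutant replicate 1, 3.08 on mutant replicate 2 and 3.21 on mutant replicate 3. For AT1G17860 the order was another, with 0.97, 0.96 and 0.31 on mutant replicates 1, 2 and 3.

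The dim potato inhibitor I genes varied more between mutant arrays than AT2G38870 did. AT2G38900 stood at −2.03, −1.75 and −0.51 against the wild-type mean on mutant replicates 1, 2 and 3. AT3G46860 stood at 0.95, −0.67 and −0.32, and its sign therefore differed between mutant arrays.

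**Figure D2:**
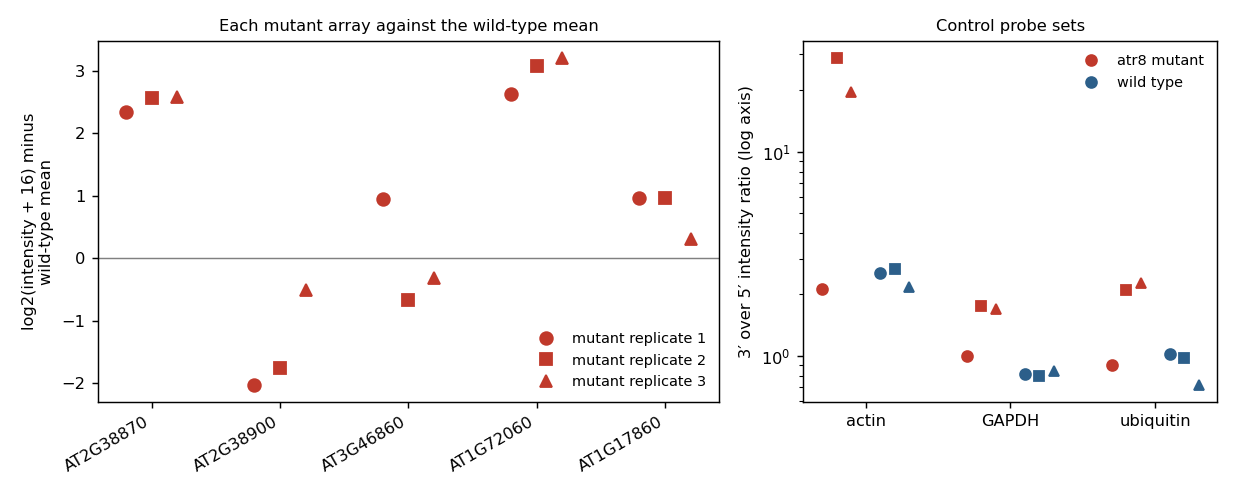
Left, log2(intensity + 16) of each measured inhibitor gene on each atr8 mutant array minus the wild-type mean. Right, the ratio of 3′ to 5′ intensity (log axis) of 3 plant control transcripts on the 3 mutant and 3 wild-type arrays. AT2G38870 and AT1G72060 stand above 2 on all 3 mutant arrays, and lowest on mutant replicate 1. The actin ratio is 28.9 and 19.6 on mutant replicates 2 and 3 and 2.13 on mutant replicate 1. The part of these ratios in the inhibitor differences was not tested.

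Further serine protease inhibitors had differences on both sides of 0, all of them below 2 on the log2 scale. Of 20 listed genes (serpins, further Kunitz genes and the small mustard-type trypsin inhibitors) 12 were measured, and limma called 0 of them, with 2 at an unadjusted p under 0.05, a level that 14.0% of all probe sets reached. Their median difference was 0.20 and their range −0.86 to 1.89, against the median of −0.01 over all probe sets. The smallest p belonged to AT2G43550, a mustard-type trypsin inhibitor gene, with intensities of 1300, 1580 and 1712 in the mutant, against 1959, 3126 and 2456 in the wild type. All its mutant arrays lay below its wild-type arrays (log2 difference −0.69 ± 0.25, adjusted p = 0.31 by limma), and under limma's trend and robust prior it was called lower (adjusted p = 0.0118).

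The 7 measured serpins, which trap proteases by a large change of shape, ran from −0.86 to 1.89 on the log2 scale with 0 calls. SERPIN1, an inhibitor of the cysteine protease RD21 that is named here after its values were seen, had intensities of 1545, 1647 and 1903 in the mutant, against 2164, 2010 and 1993 in the wild type (log2 difference −0.28 ± 0.19, adjusted p = 0.555 by limma). The other measured Kunitz gene, AT1G72290, was also named after its values were seen. It encodes a water-soluble chlorophyll-binding protein and read 41.3, 7.56 and 57.4 in the mutant, against 5.91, 3.26 and 8.86 in the wild type. Its genotypes overlapped, and its difference was 1.08 ± 0.45 (adjusted p = 0.362 by limma).

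Cystatins, the inhibitors of papain-like cysteine proteases, lay close to the median of all probe sets. Of 7 listed genes 3 were measured, with log2 differences of 0.03 to 0.12, 0 calls by limma and 0 at an unadjusted p under 0.05. The smallest p was that of AT5G05110, at 0.12 ± 0.23 (adjusted p = 0.854 by limma).

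The proteases themselves had 0 calls by limma. Of 45 listed subtilases, the serine proteases of the subtilisin type, many of them secreted to the cell wall, 38 were measured. Of these, 12 had a positive and 26 a negative difference, with a median of −0.29 and a range of −1.86 to 1.28. An unadjusted p under 0.05 was reached by 5, and by 14.0% of all probe sets. All mutant arrays lay below all wild-type arrays in 7 of the 38, a separation that 11.0% of all probe sets had. They lay above in 2 of the 38, and in 11.2% of all probe sets. Without mutant replicate 1 limma called 2 of the 38 subtilases, where 1.38% of all probe sets were called. Under a trend and robust prior it called 3, 1 higher and 2 lower, where 6.41% of all probe sets were called. The subtilase with the smallest p was ATSBT5.2, with intensities of 411, 755 and 747 in the mutant, against 270, 272 and 207 in the wild type. Its mutant arrays all lay above its wild-type arrays, by less on mutant replicate 1 (0.69 on the log2 scale) than on mutant replicates 2 and 3 (1.55 and 1.53). The difference was 1.26 ± 0.30 (adjusted p = 0.161 by limma). The other 4 with an unadjusted p under 0.05, named here after their values were seen, had negative differences, and all their mutant arrays lay below their wild-type arrays. These were ARA12 at −1.86 ± 0.62, AT2G39850 at −1.68 ± 0.44, AT5G45640 at −1.58 ± 0.47 and AT3G14067 at −1.35 ± 0.38 on the log2 scale. Their adjusted p-values were 0.188 to 0.273 by limma. On mutant replicates 1, 2 and 3 ARA12 stood at −0.42, −2.43 and −2.73 against the wild-type mean. AT2G39850 stood at −0.71, −2.04 and −2.3, and AT3G14067 at −0.6, −1.52 and −1.93. AT5G45640 was dim, with 5.7, 4.06 and 3.12 in the mutant, against 30.6, 110 and 21.8 in the wild type. The part of the control ratios in these differences was not tested.

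Among papain-like cysteine proteases, 11 of 22 listed genes were measured, with a median of −0.17, a range of −0.75 to 0.29, 0 calls and 0 at an unadjusted p under 0.05. The smallest p was that of AT4G16190, with intensities of 5058, 2541 and 2507 in the mutant, against 4950, 5327 and 5860 in the wild type. Mutant replicate 1 lay within the wild-type range and mutant replicates 2 and 3 well below it (log2 difference −0.75 ± 0.33, adjusted p = 0.379 by limma). The part of the high 3′ to 5′ control ratios of these 2 arrays in this difference was not tested.

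Jasmonate and wound response genes, the pathway that controls many such inhibitors in other plants, were hardly covered, with 3 of 24 listed genes measured. Limma called 0 of the 3, whose median was 0.81 and range −0.61 to 1.49. An unadjusted p under 0.05, a level that 14.0% of all probe sets reached, was seen for 2 of them. These were PDF1.2, named here after its values were seen (log2 difference 0.81 ± 0.19), and PDF1.2b, both defensin genes. PDF1.2b, a plant defensin gene, had intensities of 4068, 5616 and 6977 in the mutant, against 1596, 1809 and 2454 in the wild type. All its mutant arrays were above its wild-type arrays (adjusted p = 0.105 by limma), and it was called higher under a trend and robust prior, with 64 added and without the dimmest 30 percent of probe sets. Its probe set (suffix x) may cross-hybridise with similar transcripts.

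**Figure D3:**
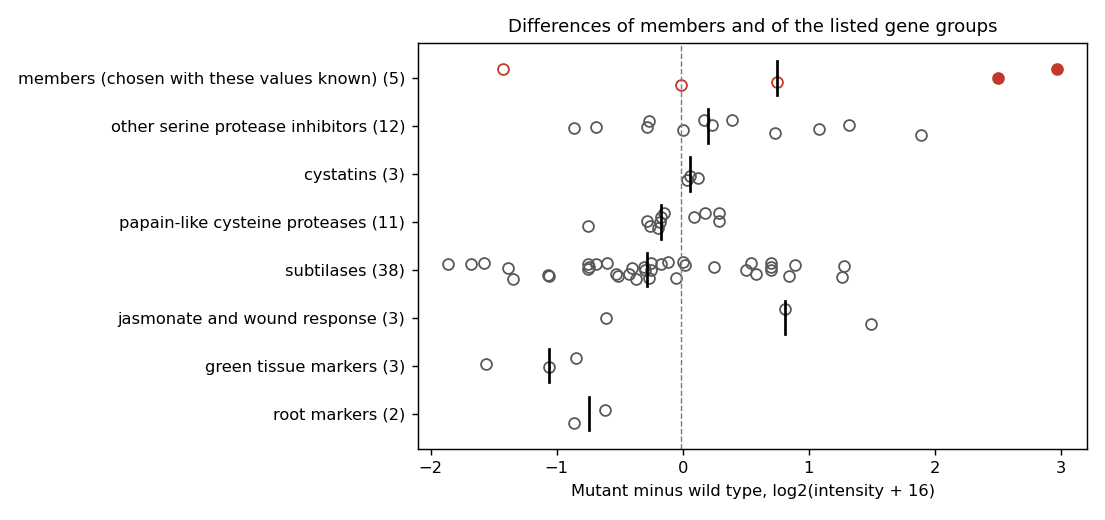
Mutant minus wild-type difference of log2(intensity + 16) for the 5 measured inhibitor genes and for each measured gene of the listed groups (number measured in brackets), 3 arrays per genotype. Filled points passed an adjusted p under 0.05 in limma, short bars are group medians and the dashed line is the median of all probe sets. Filled points occur at AT2G38870 and AT1G72060, which were chosen with these values known, and the listed groups hold 0.

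Measured markers of green tissue stood lower in the mutant, without passing the threshold. Of 15 listed genes of green tissue 3 were measured, and all 3 had lower intensities on every mutant array than on every wild-type array, a separation that 11.0% of all probe sets had. Their summed intensity was 24631 to 32578 in the mutant and 51219 to 53316 in the wild type. Limma called 0 of them, and 3 had an unadjusted p under 0.05, a level that 14.0% of all probe sets reached. RCA, which encodes Rubisco activase, averaged 17939 ± 3219 in the mutant and 32002 ± 1193 in the wild type. LHCB4.1, a minor antenna protein of photosystem II, averaged 8689 ± 1228 in the mutant and 18030 ± 523 in the wild type (SD, n = 3 each). Of 10 root genes 2 were measured, EXPA7 and EXPA18 of root hairs, with a summed intensity of 419 to 768 in the mutant and 854 to 925 in the wild type, 0 calls by limma and 0 at an unadjusted p under 0.05. EXPA18 overlapped between genotypes, with intensities of 587, 311 and 342 in mutant replicates 1, 2 and 3, against 723, 548 and 601 in wild-type replicates 1, 2 and 3. It stood near the wild-type mean on mutant replicate 1 (−0.08 on the log2 scale) and lower on mutant replicates 2 and 3 (−0.96 and −0.83), the arrays with the high actin ratios. EXPA7 did not overlap, with 181, 161 and 77.2 in mutant replicates 1, 2 and 3, against 203, 313 and 252 in wild-type replicates 1, 2 and 3. Its order over the arrays was another, at −0.45, −0.6 and −1.52 against the wild-type mean on mutant replicates 1, 2 and 3. Of 9 seed storage genes 0 were measured. Fewer cells of a type and less RNA per cell cannot be told apart in whole seedlings, and the part of tissue makeup in the inhibitor differences was not tested.

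The chromosomal neighbourhood of AT2G38870 held a gene that rose. Gene order followed RefSeq's table for TAIR10.1. Of the 18 genes next to a member, 8 had a probe set listing them alone, 4 of them with a positive difference. Limma called 1 of the 8, where 0.919% of all probe sets were called. An unadjusted p under 0.05 was reached by 2, and by 14.0% of all probe sets. The called gene was YLS5 (AT2G38860), a DJ-1 family gene first isolated from yellowing leaves, which is next to AT2G38870. Its intensities were 1965, 2306 and 2006 in the mutant, against 749, 686 and 648 in the wild type. The genotypes did not overlap, and YLS5 rose by 1.57 ± 0.19 on the log2 scale, or 2.97-fold (adjusted p = 0.0336 by limma). It lost the threshold with a replicate block (adjusted p = 0.24) and without any one of the arrays other than mutant replicate 1 (adjusted p = 0.0997 to 0.137), with differences of 1.5 to 1.62. Limma called 0 of all probe sets under each of these settings. On mutant replicate 1 alone YLS5 stood 1.48 above the wild type (adjusted p = 0.271).

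The genes next to AT2G38900 were less uniform. AT2G38890 read 126, 84.3 and 83.5 in the mutant, against 9.89, 4.48 and 41.9 in the wild type, with all mutant arrays above (log2 difference 1.84 ± 0.43, adjusted p = 0.153 by limma). AT2G38905 on the other side stood at −0.48 ± 0.59 with overlapping genotypes. AT1G72070, beside AT1G72060, stood at 0.10 ± 0.34. It read 71.3, 130 and 82.2 in the mutant, against 108, 105 and 52.4 in the wild type, so the high mutant level of AT1G72060 was not seen in its measured neighbour.

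Genes beside unmeasured members had small estimated differences, some with standard errors too wide to show a lack of difference. AT5G43560 and AT5G43590, on either side of the AT5G43570 and UPI pair, stood at 0.47 ± 0.25 and −0.11 ± 0.95. AT3G50010 beside AT3G50020 stood at −0.09 ± 0.56, and AT1G73320 beside AT1G73325 at −0.25 ± 0.41. None of these 4 passed in limma, with adjusted p-values of 0.448 to 0.969. Within 10 genes on either side, a window chosen after the values were seen, limma called 1 of 12 probe sets around AT2G38870 other than members, 0 of 11 around AT1G72060 and 0 of 6 around AT1G17860. Over all probe sets 0.919% were called. Of the 11 around AT1G72060, AT1G72130 had the smallest p, with all mutant arrays above (log2 difference 1.78 ± 0.28, adjusted p = 0.0644 by limma). The next smallest was that of AT1G72030, with all mutant arrays below (−0.62 ± 0.2, adjusted p = 0.262 by limma). Both were named after their values were seen.

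**Figure D4:**
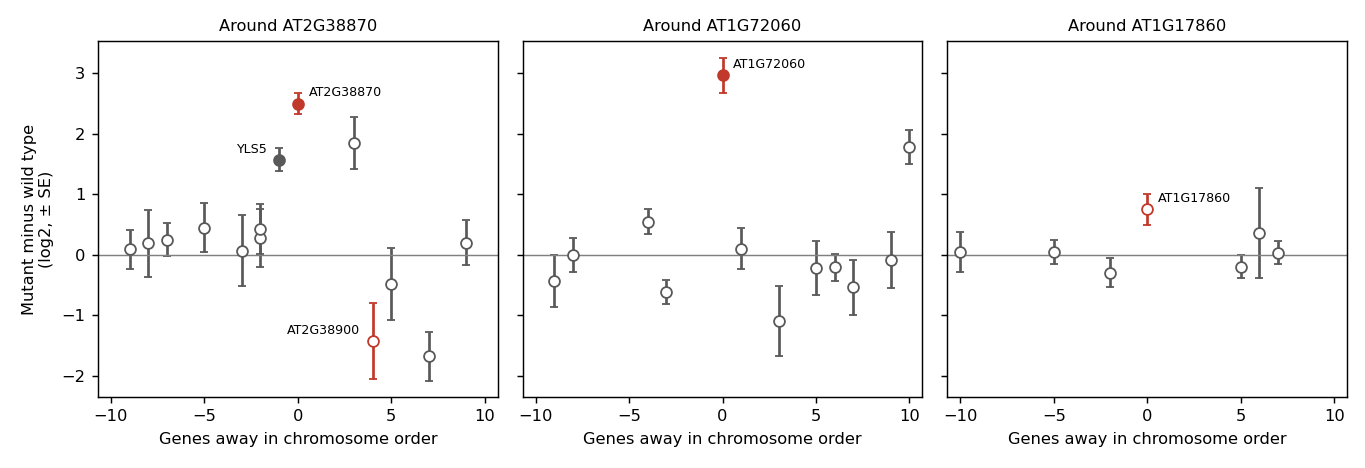
Mutant minus wild-type difference of log2(intensity + 16), with its SE (n = 3 arrays per genotype), for probe sets of genes within 10 genes of AT2G38870, AT1G72060 and AT1G17860 in chromosome order. Red points are the inhibitor genes, grey points their neighbours, and filled points passed an adjusted p under 0.05 in limma. YLS5 at 1.57 stands beside AT2G38870 at 2.50, and AT1G72070 at 0.10 beside AT1G72060 at 2.97.

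The genes whose pattern over the 6 arrays was most like that of AT1G72060 were found by Pearson's r of log2(intensity + 16) among 13508 other probe sets with 1 gene. These arrays share the split between genotypes, so r describes mainly that split and says nothing of size, and 187 probe sets had an r over 0.95. The 5 highest were LPR2, a multicopper oxidase gene of the root response to low phosphate, at 0.999, AT5G52760, AT3G18250 and AT1G74360 at 0.998 each, and AT5G18420 at 0.995. AT1G74360 encodes a receptor kinase with leucine-rich repeats. Their log2 differences ran from 0.51 for AT5G18420 and 0.68 for LPR2 to 2.11 for AT1G74360, 3.00 for AT5G52760 and 4.57 for AT3G18250.

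The same search for AT2G38870 was added after the values were seen. Its 5 nearest patterns were the chitinase gene AT4G01700 at an r of 0.998, AT1G26420, a berberine bridge enzyme-like gene, the beta-glucosidase gene BGLU27 and the neighbouring YLS5 at 0.996 each, and AT5G22555 at 0.995, with 202 probe sets over 0.95. AT4G01700 had intensities of 2376, 2711 and 2887 in the mutant, against 705, 629 and 567 in the wild type. AT1G26420 had 627, 848 and 996 in the mutant, against 101, 109 and 103 in the wild type. As for AT2G38870, mutant replicate 1 was the lowest mutant array for both, and it lay well above the wild type. This order also held for BGLU27 and YLS5, but for AT5G22555 mutant replicate 3 was the lowest (424, 592 and 377 in mutant replicates 1, 2 and 3).

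**Figure D5:**
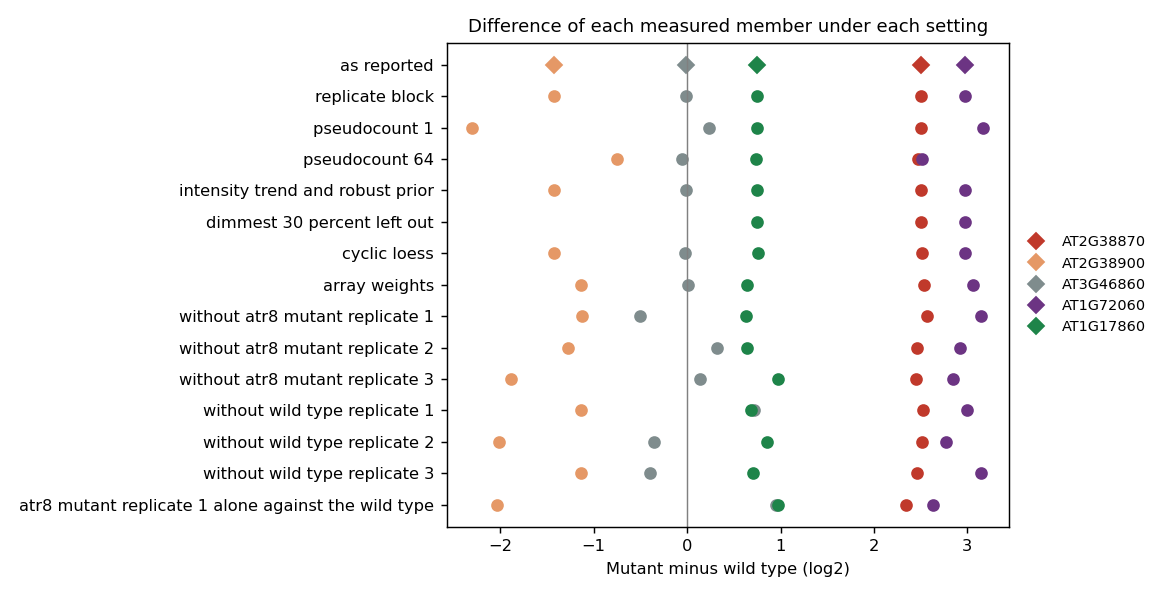
Mutant minus wild-type difference (log2) of each measured inhibitor gene as reported (diamonds) and under each alternative setting (circles). AT2G38870 lies between 2.34 and 2.57, AT1G72060 between 2.51 and 3.17 and AT1G17860 between 0.63 and 0.97 under every alternative, AT2G38900 stays below 0 and AT3G46860 lies on both sides of 0. The dim genes AT2G38900 and AT3G46860 were not tested once the dimmest 30 percent of probe sets were left out.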

How the data were processed

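The authors deposited linear intensities from 1 to 47944, 1 per probe set and array, made from biotin-labelled cRNA, per the labels' protocols. All 6 columns held the same sorted values, so the deposited intensities were quantile normalized. Which software summarized the probes, and with what background correction, is not given in the sources used here. Precision is limited by the number of arrays.

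Of 22810 probe sets, 64 controls were left out and 22746 tested in limma 3.58.1 (lmFit, eBayes; R 4.3.3) on log2(intensity + 16), genotype being the only term, with Benjamini-Hochberg adjustment over all. The fit was tested on simulated data. Probe sets were named through the platform annotation (13513 with 1 gene) and the RefSeq gene table.

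The members and the gene lists were chosen with earlier results of these data known. Text names all measured members, list genes past the threshold or else the 1 with the smallest p (the 2 brightest for markers), measured flanking genes and the 5 most similar patterns. Exceptions are marked. Alternatives were the replicate block, pseudocounts of 1 and 64, a trend with robust prior, a filter on dim probe sets, cyclic loess, array weights, each array left out, and mutant replicate 1 alone. Same-numbered arrays were not paired by any label.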

Additional observations from a re-analysis of the deposited data

Results flagged for a closer look

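The control probe sets were outside the comparison of genotypes. Some of their 3′ to 5′ ratios on mutant arrays exceeded the highest wild-type value, on mutant replicate 1 that of GAPDH only. In mutant replicates 2 and 3 the ratio for actin was 28.9 and 19.6, against at most 2.66 in the wild type. For GAPDH it was 0.996, 1.75 and 1.70 in mutant replicates 1, 2 and 3, against at most 0.844 in the wild type, and for ubiquitin 2.10 and 2.27 in mutant replicates 2 and 3, against at most 1.02. The part of this difference in the values of the inhibitor genes was not tested.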

How the results depend on the processing

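Over all probe sets limma's counts moved with most settings, and the cause was not tested. From 162 higher and 47 lower, they became 78 and 21 with 1 added, 813 and 646 under a trend and robust prior, and 282 and 77 without the dimmest 30 percent. Higher calls were 269 with 64 added, lower calls 76 with array weights. With the replicate block, and with mutant replicate 1 alone, there were 0 of each, with 2769 and 2194 probe sets at an unadjusted p under 0.05. Leaving out mutant replicate 1 gave 156 higher and 158 lower calls, and leaving out any other single array gave 0 of each.

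Of the 5 measured members 2 passed the threshold, where 0.919% of all probe sets were called. Under a trend and robust prior 3 passed (with AT1G17860), where 6.41% were called. With the replicate block 0 passed, as over all probe sets. Leaving out mutant replicate 1 kept 2, where 1.38% were called. Leaving out any other single array gave 0, again as over all probe sets. The deviations of same-numbered arrays from their genotype means correlated at 0.0141, 0.0115 and 0.00455. Every array correlated best with its own number, but these correlations were very weak, and the arrays were not treated as paired. AT2G38870, AT1G72060 and AT1G17860 kept a positive and AT2G38900 a negative difference under every alternative that tested them, while AT3G46860 had both signs (−0.50 to 0.95).

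Against 0 calls in each list, the trend with a robust prior called 1 of 12 other serine protease inhibitors and 3 of 38 subtilases. This prior called 6.41% of all probe sets. It also called 2 jasmonate genes, the defensin genes PDF1.2 and PDF1.2b, and 3 green tissue markers. With 64 added 1 jasmonate gene and 2 green tissue markers were called, without the dimmest 30 percent 1 and 2, and with array weights 1 green tissue marker. Over all probe sets the calls were 269 higher and 67 lower with 64 added. They were 282 and 77 of 15922 without the dimmest 30 percent, and 229 and 76 with array weights. Leaving out mutant replicate 1 gave 2 subtilases, where 1.38% of all probe sets were called. Leaving out any other single array gave 0, as it did over all probe sets. Cystatins, papain-like cysteine proteases and root markers had 0 calls in all alternatives.

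Some small differences changed sign with 1 array left out. AT5G05110 ran from −0.01 (without mutant replicate 1) to 0.28, AT3G50010 from −0.50 to 0.43, AT5G43590 from −0.95 to 0.63, AT1G72070 from −0.18 to 0.25, and AT1G73320 from −0.52 to 0.17. On mutant replicate 1 alone AT3G50010 stood at 0.73, AT1G72070 at −0.21 and AT1G73320 at 0.27.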
